A study of Mus musculus with 30 samples.

Results

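Macrophages sorted as negative for tumor-derived GFP were compared between CCR2high and CCR2low cells of the glioma-bearing brain, within the same animal. The compared libraries are the 4 of the GFPneg CCR2high population and the 4 of the GFPneg CCR2low population, from mice PG22, PG23, PG24 and PG26, 8 of the 30 libraries of the study. The methods state fewer mice per population than the 4 deposited libraries of each, and all 4 were used. Each was chosen by its labelled cell population, and each CCR2high library was paired with the CCR2low library of the same mouse by the animal number in its title. Both groups are C57BL6.CCR2RFP/WT, 12 to 18 weeks old, heterozygous for a red fluorescent protein placed in the Ccr2 locus. All animals carried GL261, a mouse glioma cell line, made to express a GFP anchored in its membranes by a palmitoyl group. The compared cells differ from the GFPpos populations in being sorted as negative for it, which does not exclude uptake below the gate. The sort kept brain cells high for CD11b and CD45, a gate meant to leave out microglia, and then used F4/80, Ly6C and the CCR2 reporter. Each animal thus gives 1 library a population and a pair of libraries comes from 1 tumor. With 1 glioma line in 1 strain, differences between animals are those of this model.

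CCR2 is the receptor by which monocytes follow CCL2 out of the bone marrow and into inflamed tissue. Monocytes that enter a tumor lose Ly6C and CCR2 as they become macrophages, so that in an infiltrated brain the level of CCR2 is commonly read as a mark of how recently a cell arrived. Microglia, the resident macrophages of the brain, come from an embryonic source, carry little CCR2 and are known by genes such as Tmem119, P2ry12 and Sall1.

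Counts on genes ran from 1688256 to 4688949 in the CCR2high libraries (median 3138153.5, n = 4) and from 1799420 to 3809705 in the CCR2low libraries (median 1975677, n = 4). Spike-in RNA took 0.38% to 1.17% of the counts. Between 10011 and 12340 genes had at least 5 reads. Reads without a gene feature made up 7.14%, 7.08%, 8.97% and 7.59% in the CCR2high libraries of mice PG22, PG23, PG24 and PG26 and 7.76%, 9.44%, 11.6% and 8.85% in the CCR2low ones. This share was higher in the CCR2low library of every mouse, and its part in the results was not tested. Levels are given as normalised read counts in CPM, read counts scaled to a common library size after TMM normalisation, and tests are those of edgeR's quasi-likelihood model over all 8 sorted populations with the mouse as a block. Y-linked genes such as Ddx3y were counted in mice PG22, PG23 and PG24 and were at 0 in every macrophage library of mouse PG26. Xist showed the reverse, with 42.8 and 92.5 CPM in the GFPneg macrophages of mouse PG26 and at most 0.473 CPM in the others. The methods give equal numbers of males and females, while these genes split the 4 mice 3 to 1. The sex of mouse PG26 cannot be told apart from other features of the animal. All CCR2high against CCR2low differences are taken within a mouse.

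The genes of the sort gate were examined first, since they check the labels and are no finding. Ccr2 (GRCm38 chr9:124101950-124113557, plus strand) was higher in the CCR2high library of every mouse. It had 216, 325, 147 and 306 CPM in the CCR2high macrophages of mice PG22, PG23, PG24 and PG26, and 62.6, 82.2, 32.6 and 113 CPM in the CCR2low macrophages of the same animals. The lowest CCR2high library lay above the highest CCR2low library, and the difference was 1.81 on the log2 scale (SE 0.308, adjusted p = 0.0234). Adgre1, which encodes F4/80, had 527 ± 159 CPM in CCR2high and 635 ± 146 CPM in CCR2low cells (SD, n = 4 each), Itgam, which encodes CD11b, 506 ± 258 and 561 ± 224 CPM, and Ptprc, which encodes CD45, 743 ± 80.9 and 684 ± 127 CPM. The levels of these 3 genes overlapped between the groups, and none was called. Ly6c2, which encodes part of the Ly6C antigen, had 201 ± 36.2 CPM in CCR2high and 126 ± 37 CPM in CCR2low cells and was higher in the CCR2high library of all 4 mice, but did not pass the test (log2 fold change 0.71, adjusted p = 1). Reads that match both Ly6c2 and its near copy Ly6c1 may have been left uncounted or given to the wrong one.

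Of 11566 genes tested, 3 were called at an adjusted p under 0.05, which is 0.0259% of them. Ly6i and Ccr2 rose (2 genes, 0.0173%) and Cd79a fell (1 gene, 0.00865%) in CCR2high cells. At an unadjusted p under 0.05 there were 421 genes (3.64%), 175 of them higher (1.51%) and 246 lower (2.13%) in CCR2high cells. The order of the groups was the same in all 4 mice for 1196 genes higher (10.3%) and 1019 genes lower (8.81%) in CCR2high macrophages. For 361 genes (3.12%) the libraries of the groups did not overlap, with 186 higher (1.61%) and 175 lower (1.51%) in CCR2high cells. The 3 calls rest on the pairing by mouse: without the mouse in the model edgeR called 0 genes (274 at an unadjusted p under 0.05, smallest adjusted p 0.608) and DESeq2 called 8 others. Scaled to the spike-in RNA, no gene was called by edgeR (0 genes, and 104 at an unadjusted p under 0.05). With 1 library left out, the call of Ccr2 was kept only without the CCR2low library of mouse PG26, and that of Cd79a without the CCR2high library of mouse PG24 or the CCR2low library of mouse PG22 or PG26.

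**Figure D1:**
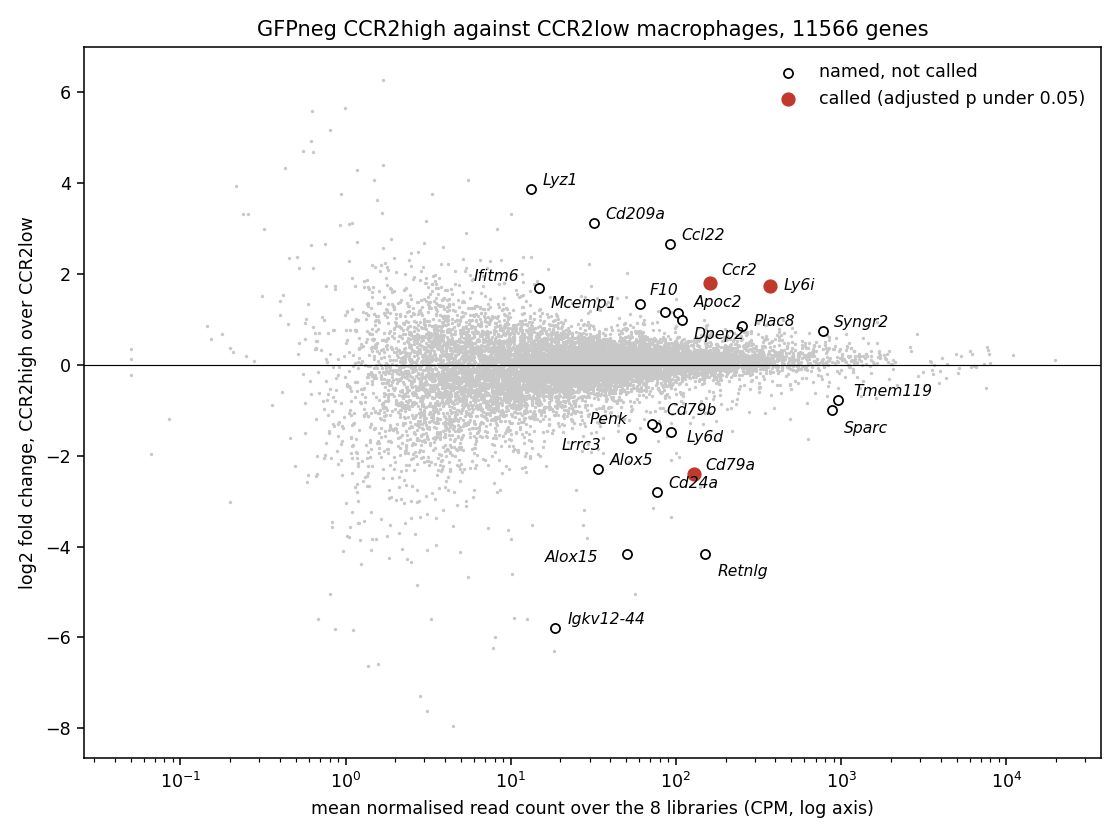
Log2 fold change of CCR2high over CCR2low GFPneg macrophages (vertical axis) against the mean normalised read count over the 8 libraries (CPM, logarithmic horizontal axis) for each of the 11566 genes tested (grey). Filled red points are the 3 called genes and open circles the other 21 named genes, which lie at the outer edge of the cloud for their level without passing the test over all genes.

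Ly6i (GRCm38 chr15:74979534-74983430, minus strand) encodes a small surface protein of the Ly6 family, in the same cluster on chromosome 15 as Ly6c2. It had 926, 576, 613 and 197 CPM in the CCR2high macrophages of mice PG22, PG23, PG24 and PG26, and 282, 166, 126 and 81.8 CPM in the CCR2low macrophages of the same mice. Every CCR2high library stood above its partner from the same mouse, while the CCR2high library of mouse PG26 lay below the CCR2low library of mouse PG22. Ly6i rose by 1.73 on the log2 scale (SE 0.188, adjusted p = 5.04e-05) and was called whichever single library of the 8 was left out. Ly6i belongs to a family of near copies. Reads that match its neighbours too may have been left uncounted or given to the wrong gene, so that its level is uncertain.

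Cd79a (GRCm38 chr7:24897381-24902197, plus strand) encodes a signalling chain of the B cell receptor. It had 33.9, 25.4, 126 and 4.83 CPM in the CCR2high macrophages of mice PG22, PG23, PG24 and PG26, against 168, 185, 455 and 34.2 CPM in the CCR2low macrophages. Mouse PG24 was highest and mouse PG26 lowest in both populations, and the difference was in the same direction in each pair. Cd79a fell by 2.41 on the log2 scale (SE 0.395, adjusted p = 0.0201). It is a gene of another cell type than the one sorted, and it is taken up again with the other B-lineage genes.

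When the 8 libraries were fitted on their own with the mouse as a block, 110 of 9608 genes were called (1.14%), 39 higher (0.406%) and 71 lower (0.739%) in CCR2high cells, and the 3 genes above were among them. At an unadjusted p under 0.05 this fit gave 565 genes higher (5.88%) and 519 lower (5.4%). The fit over all populations draws its spread from blood and brain cells together, and the 8 libraries alone leave 3 residual degrees of freedom. Calls in the 8 libraries alone are given for some genes and lists. They use the same libraries by which genes were chosen, so they are no independent support. They were lost in edgeR when the mouse was left out of that fit.

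Besides the called genes, those of smallest p among those with at least 10 CPM and 1 direction in all 4 mice were followed, up to 12 in each direction. On the higher side the other 10 had adjusted p-values of 0.102 to 0.37 in the fit over all populations, and 8 of them were called in the 8 libraries alone. Ccl22, a chemokine that draws cells with the receptor CCR4, had 106, 99.1, 385 and 69.5 CPM in the CCR2high macrophages of mice PG22, PG23, PG24 and PG26 and 18.4, 21.2, 13.7 and 20.3 CPM in the CCR2low ones. Its groups did not overlap, and the CCR2low libraries lay within a narrow range (log2 fold change 2.65, adjusted p = 0.102, and 0.014 in the 8 libraries alone). Ccl17, which is coded beside Ccl22 and acts on the same receptor, had 28.2, 36.9, 84.4 and 41.7 CPM against 8.04, 15.2, 14.2 and 15 CPM, and was called in the 8 libraries alone. Both chemokines had their highest level in the CCR2high library of mouse PG24.

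Cd209a, a C-type lectin of dendritic cells that come from monocytes, had 42.2, 21.2, 156 and 6.21 CPM in CCR2high cells and 1.15, 2.05, 24.6 and 1.07 CPM in CCR2low cells. Each CCR2high library was above that of the same mouse, but mouse PG24 was far above the others in both populations (log2 fold change 3.12, adjusted p = 0.283, and 0.00699 in the 8 libraries alone). Mcemp1, a membrane protein of mast cells and other myeloid cells, had 86.4, 73.7, 118 and 68.8 CPM against 44.2, 27.1, 34 and 31.5 CPM, with no overlap. Lyz1, a lysozyme gene, had 10.9, 18.5, 59.8 and 10.1 CPM against 2.87, 2.28, 0 and 1.07 CPM. Its near copy Lyz2, the lysozyme of macrophages, was at 6238 to 12280 CPM in CCR2high and 3756 to 9784 CPM in CCR2low cells. Reads that match both genes may have been left uncounted or given to the wrong one.

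The remaining genes on the higher side differed less. Syngr2, a vesicle membrane protein, had 972 ± 210 CPM in CCR2high and 573 ± 24.5 CPM in CCR2low cells. Plac8, a small cysteine-rich protein of monocytes, had 318 ± 87.6 and 181 ± 83.4 CPM, and F10, coagulation factor X, 119 ± 44.4 and 52.3 ± 18.7 CPM. Apoc2, the cofactor of lipoprotein lipase, had 140 ± 52.8 and 65.8 ± 37.6 CPM, and Dpep2, a membrane dipeptidase, 143 ± 82 and 75.3 ± 50.4 CPM. Ifitm6, of the interferon-induced transmembrane family, had 22.9 ± 10.2 and 6.89 ± 3.84 CPM. All are means ± SD over 4 mice, and Ifitm6 and Lyz1 were the genes of this set not called in the 8 libraries alone.

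On the lower side the other 11 genes had adjusted p-values of 0.127 to 0.431, and 10 were called in the 8 libraries alone, while Igkv12-44 was not tested there. Retnlg, resistin-like gamma of neutrophils, had 1.92, 17.5, 29.6 and 15 CPM in the CCR2high macrophages of mice PG22, PG23, PG24 and PG26 and 74, 348, 489 and 233 CPM in the CCR2low ones. Its groups were wide apart in every mouse (log2 fold change -4.17, adjusted p = 0.15, and 7.55e-06 in the 8 libraries alone). Alox15, a lipoxygenase that oxygenates arachidonic acid, had 2.56, 1.46, 18.1 and 1.38 CPM against 23.5, 102, 172 and 82.8 CPM. Alox5, the lipoxygenase that starts leukotriene synthesis, had 7.04, 13.8, 22.1 and 5.29 CPM against 31, 63.3, 81.8 and 47.6 CPM. Neither lipoxygenase overlapped between the groups. Cd24a, a surface glycoprotein of lymphocytes and granulocytes, had 13.4, 16.7, 27.1 and 16.8 CPM against 49.9, 184, 234 and 70 CPM, also with no overlap.

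Ly6d, a Ly6 protein of the B lineage, had 45.2 ± 27.7 CPM in CCR2high and 141 ± 96.3 CPM in CCR2low cells. Lrrc3, a leucine-rich repeat protein, had 26.5 ± 16.6 and 80.8 ± 43.5 CPM, and Penk, the precursor of the enkephalins, 42.4 ± 16.1 and 101 ± 28.2 CPM. Igkv12-44, an immunoglobulin kappa variable segment, had at most 3 reads in any CCR2high library and 3.44, 31.2, 12.8 and 98.9 CPM in the CCR2low ones. The CCR2low library of mouse PG26 was the highest of these. Reads of variable segments can match several close copies and may be left uncounted or given to the wrong one, so this gene stands for no clone. Tmem119, Sparc and Cd79b, the others of the 12, are described with their lists.

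**Figure D2:**
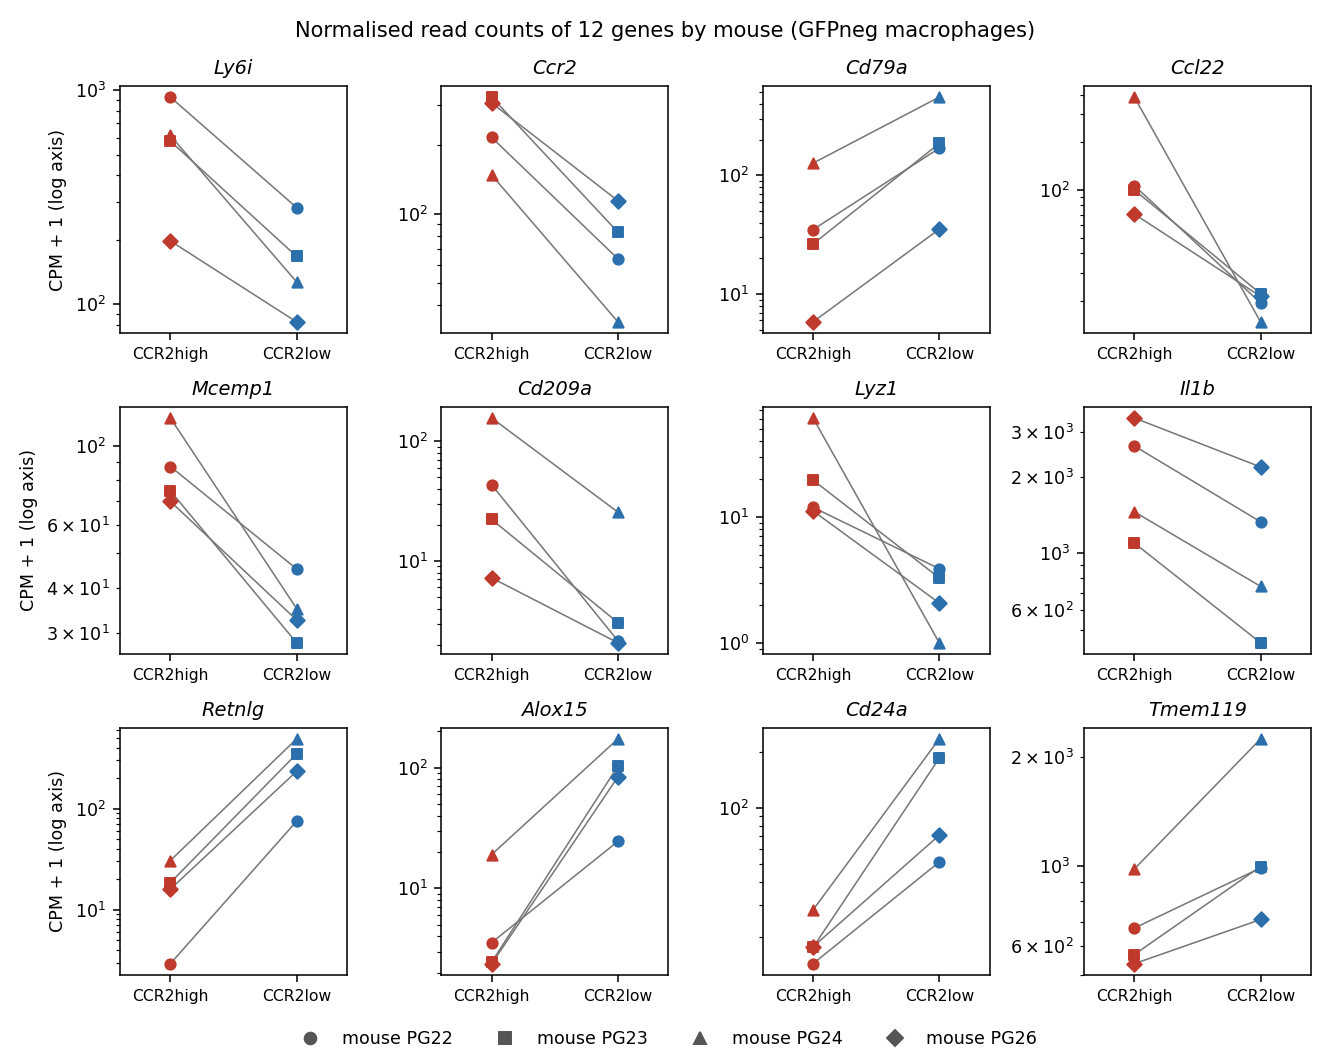
Normalised read counts of 12 genes in GFPneg CCR2high (red) and CCR2low (blue) macrophages, drawn as CPM + 1 on logarithmic axes that differ between panels, with a line joining the libraries of 1 mouse. The lines of all 4 mice slope the same way in every panel, which was a condition of the choice for all of these genes but Il1b. The libraries of mouse PG24 are highest in both populations for Cd79a, Cd209a, Retnlg, Alox15, Cd24a and Tmem119.

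Promoter windows were looked up for the 24 named genes, and RefSeq windows on GRCm38.p6 were found for 15. The 250 bases before the start are shown for Cd209a and Lyz1, which had the largest log2 fold changes on the higher side, and for Retnlg, which was among the largest on the lower side. Capitals mark matches, on either strand, to a PU.1 core (GGAAGT), an AP-1 element (TGANTCA), an interferon element (paired GAAA spaced by NN), a C/EBP element (TTNCNNAA) or an NF-kB element (GGGNNNTCC). PU.1 and C/EBP factors are the main regulators of myeloid genes.
Cd209a, chr8:3748985-3749234, minus strand: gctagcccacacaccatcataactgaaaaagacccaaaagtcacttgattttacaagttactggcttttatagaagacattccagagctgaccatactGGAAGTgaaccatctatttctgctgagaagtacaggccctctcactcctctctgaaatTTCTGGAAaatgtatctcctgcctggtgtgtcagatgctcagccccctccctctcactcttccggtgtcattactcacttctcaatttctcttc
Lyz1, chr10:117292869-117293118, minus strand: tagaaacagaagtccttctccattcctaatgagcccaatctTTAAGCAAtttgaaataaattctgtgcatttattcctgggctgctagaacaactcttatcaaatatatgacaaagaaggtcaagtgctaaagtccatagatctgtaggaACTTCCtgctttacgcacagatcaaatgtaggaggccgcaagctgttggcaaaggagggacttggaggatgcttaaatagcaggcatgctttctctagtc
Retnlg, chr16:48872358-48872607, plus strand: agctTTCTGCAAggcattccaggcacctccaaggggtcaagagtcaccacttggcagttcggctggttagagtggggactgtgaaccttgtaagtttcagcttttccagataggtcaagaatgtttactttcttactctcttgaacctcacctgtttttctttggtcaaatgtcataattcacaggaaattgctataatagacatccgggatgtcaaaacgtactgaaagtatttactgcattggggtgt

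The windows of Cd209a and Lyz1 each held 1 PU.1 core and 1 C/EBP match, and that of Retnlg held 1 C/EBP match. A PU.1 core was in the windows of 6 of 10 named genes on the higher side and 1 of 5 on the lower side, against 19.8% of 32536 windows of the same length. A C/EBP match was in 5 of 10 and 1 of 5, against 36.8%, and an NF-kB match in 4 of 10 and 0 of 5, against 15.3%. No named window held an AP-1 (6.7% of all windows) or interferon element (3%). These are matches of letters in a fixed window and say nothing of which factor is bound.

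Monocyte genes were mostly higher in CCR2high macrophages. Of the 20 tested, 8 were higher and 0 lower at an unadjusted p under 0.05, 10 were higher in all 4 mice and 0 lower, and 6 were called in the 8 libraries alone (Ccr2, Plac8, F10, Ms4a4c, Ms4a6c and Napsa). The median log2 fold change of the list was 0.58, against 0.0154 over all genes. Of all genes 1.51% were higher and 2.13% lower at that p, and 10.3% higher and 8.81% lower in all 4 mice. In the 8 libraries alone 0.406% of all genes were called higher. Only Ccr2, the gate gene, was called in the fit over all populations. Ccr2 and Ly6c2 belong to the sort gate and are no finding. Both are among the 10, and Ccr2 is also among the 8 and the 6. Ms4a4c, of a family of membrane proteins, had 544, 435, 448 and 392 CPM in CCR2high and 313, 199, 262 and 216 CPM in CCR2low cells, and Ms4a6c of the same family 587, 474, 418 and 530 CPM against 396, 232, 234 and 405 CPM. Napsa, an aspartic protease, had 290, 219, 288 and 210 CPM against 157, 130, 178 and 118 CPM. None of these 3 overlapped between the groups. Plac8, F10, Chil3 and Ly6a made up the rest of the 8. Genes of the list with no difference of this kind were S100a4 (log2 fold change -0.01), S100a10 (-0.07) and Thbs1 (0.02). The summed level of the list was 1.15 to 1.53 times as high in the CCR2high as in the CCR2low library of the same mouse. These sums were 11560 to 17780 CPM in CCR2high and 7597 to 13410 CPM in CCR2low libraries. Lyz2, the lysozyme of macrophages whose level is given above, made up a large part of them.

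Microglial genes were lower in CCR2high macrophages. Of the 22 tested, 11 were lower and 0 higher at an unadjusted p under 0.05, 18 were lower in all 4 mice and 0 higher, and 11 were called lower in the 8 libraries alone, among them Tmem119, P2ry12, Sparc, Cx3cr1, Siglech, Gpr34, Fcrls, Slc2a5 and Crybb1. None was called in the fit over all populations. The median log2 fold change was -0.69. Of all genes 2.13% were lower and 1.51% higher at that p, and 8.81% lower and 10.3% higher in all 4 mice. In the 8 libraries alone 0.739% of all genes were called lower. Tmem119, a membrane protein of microglia, had 672, 567, 979 and 535 CPM in the CCR2high macrophages of mice PG22, PG23, PG24 and PG26 and 986, 995, 2246 and 709 CPM in the CCR2low ones. P2ry12, the microglial purine receptor, had 304, 300, 1024 and 150 CPM against 520, 631, 1806 and 250 CPM, and Sall1, a transcription factor of microglia, 3.2, 7.08, 12.1 and 15.2 CPM against 23, 17.1, 85.1 and 13.9 CPM. Tmem119 and P2ry12 were lower in CCR2high cells of all 4 mice, and Sall1 of 3.

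Among the other members, Sparc, a matrix protein of microglia, had 451, 428, 916 and 538 CPM against 753, 1079, 2123 and 757 CPM, and Cx3cr1, the fractalkine receptor, 622 ± 89.8 against 1031 ± 294 CPM. Siglech, Gpr34, Fcrls, Olfml3, Slc2a5 and Crybb1 were also among the 11 at an unadjusted p under 0.05. Csf1r, the receptor that all macrophages need, differed little (log2 fold change -0.15). Microglial genes such as Tmem119 and P2ry12 were well above 0 in both populations, although the gate was set against microglia. The summed list stood at 11120 to 19070 CPM in CCR2high and 15120 to 30350 CPM in CCR2low libraries. Mouse PG24 had the highest sum in each population. Csf1r and Cst3 held a large part of these sums, at 2498 to 3334 and 2477 to 6478 CPM in CCR2high libraries. In CCR2low libraries they were at 2303 to 4047 and 3113 to 8417 CPM. The sums are thus no measure of microglial RNA alone. In sorted bulk RNA, fewer cells of a type and less RNA per cell cannot be told apart.

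**Figure D3:**
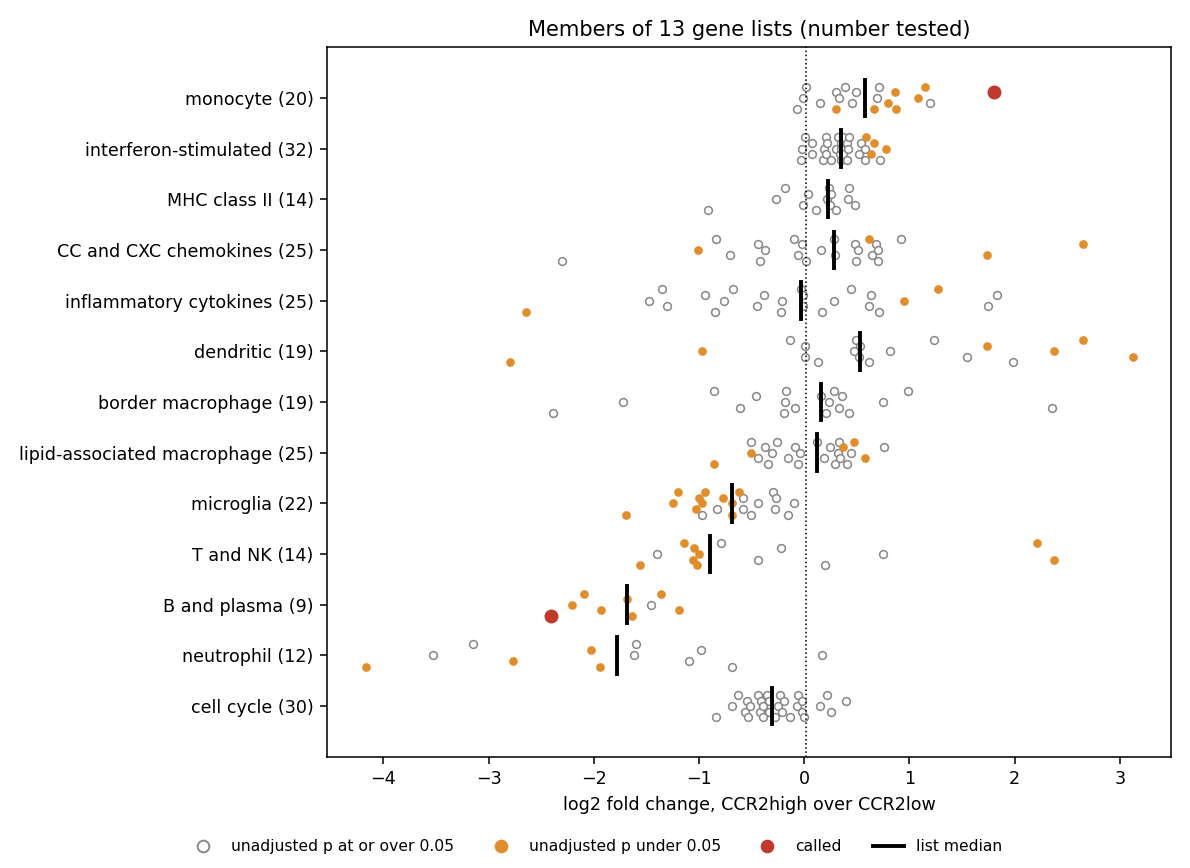
Log2 fold change of CCR2high over CCR2low GFPneg macrophages (horizontal axis) for the tested members of 13 gene lists, 1 point a gene, with a black bar at the list's median and a dotted line at the median of all genes. Orange points have an unadjusted p under 0.05 and red points are called; the monocyte list lies to the right, and the microglial, B-lineage and neutrophil lists lie to the left.

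Genes of other blood cells moved as well, in the same libraries as the named genes. Of 9 tested B and plasma cell genes, 8 were lower at an unadjusted p under 0.05 and in all 4 mice, 7 were called lower in the 8 libraries alone (Cd79a, Cd79b and Igkc among them), and the median log2 fold change was -1.68. Of all genes 2.13% were lower at that p, 8.81% were lower in all 4 mice, and 0.739% were called lower in the 8 libraries alone. Cd79a was called in the fit over all populations. Its partner Cd79b had 26.9, 27.1, 57.3 and 37.1 CPM in CCR2high and 71.8, 83.5, 260 and 45.4 CPM in CCR2low cells. Igkc, the kappa constant chain, had 402, 107, 470 and 198 CPM against 1180, 550, 1766 and 367 CPM. The summed list was 338 to 1694 CPM in CCR2high and 873 to 5509 CPM in CCR2low libraries, and in each mouse the CCR2high sum was 0.308 to 0.388 times the CCR2low sum. Igha went the other way in 1 mouse, with 59.5 against 11.5 CPM in mouse PG22.

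Of 12 neutrophil genes tested, 4 were lower and 0 higher at an unadjusted p under 0.05: Retnlg, Mmp9, S100a8 and S100a9, and the same 4 were called in the 8 libraries alone. The median log2 fold change was -1.78. Of all genes 2.13% were lower and 1.51% higher at that p, and 0.739% were called lower in the 8 libraries alone. S100a8, a calcium-binding protein of neutrophils and monocytes, had 5.12, 6.67, 98.4 and 42.6 CPM in CCR2high against 7.46, 48.9, 478 and 111 CPM in CCR2low cells. Mmp9, a gelatinase, had 2.56, 3.96, 7.03 and 8.52 CPM against 4.59, 39.8, 92.2 and 39.6 CPM. Ly6g, the defining surface marker of neutrophils, was at 0 in 3 of 4 libraries of each population, and Csf3r differed little (log2 fold change 0.16). The summed list was 210 to 524 CPM in CCR2high and 273 to 2568 CPM in CCR2low libraries. In mouse PG22 the sums were 250 and 273 CPM. Csf3r alone held 222 CPM of the CCR2high and 164 CPM of the CCR2low sum, so these sums mostly follow that gene.

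Of 14 T and NK cell genes, 6 were lower and 2 higher at an unadjusted p under 0.05, against 2.13% and 1.51% of all genes. The lower ones were the T cell receptor complex genes Cd3d, Cd3e, Cd3g, Trac and Trbc2, and Cd4. In the 8 libraries alone Cd3d, Cd3e, Cd3g, Trac and Cd4 were called lower and Klrb1c higher. Cd3e had 74.9, 104, 105 and 41.7 CPM in CCR2high against 178, 229, 167 and 114 CPM in CCR2low cells, with no overlap, and Cd4 58.9, 45.6, 33.1 and 42.8 CPM against 151, 143, 105 and 132 CPM. The higher ones were the NK cell receptors Klrb1c, at 28.8, 43.3, 91.4 and 34.3 CPM against 5.74, 20, 6.62 and 8.55 CPM, and Ncr1, at 25.6, 22.7, 31.1 and 9.67 CPM against 5.17, 8.42, 0 and 3.21 CPM. Klrb1c and Ncr1 were thus in the opposite order to Cd3e and Cd4, each without overlap. Cd3g did overlap, at 75.5, 126, 182 and 56.2 CPM against 177, 265, 252 and 159 CPM. The cytotoxic granule gene Gzmb had 360, 559, 1024 and 299 CPM against 204, 784, 404 and 459 CPM and had no common direction. Gzma, another such gene, had none either, at 197, 187, 588 and 155 CPM against 46.5, 237, 139 and 156 CPM. The part that RNA of B cells, T cells, NK cells or neutrophils has in the results above was not tested.

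**Figure D4:**
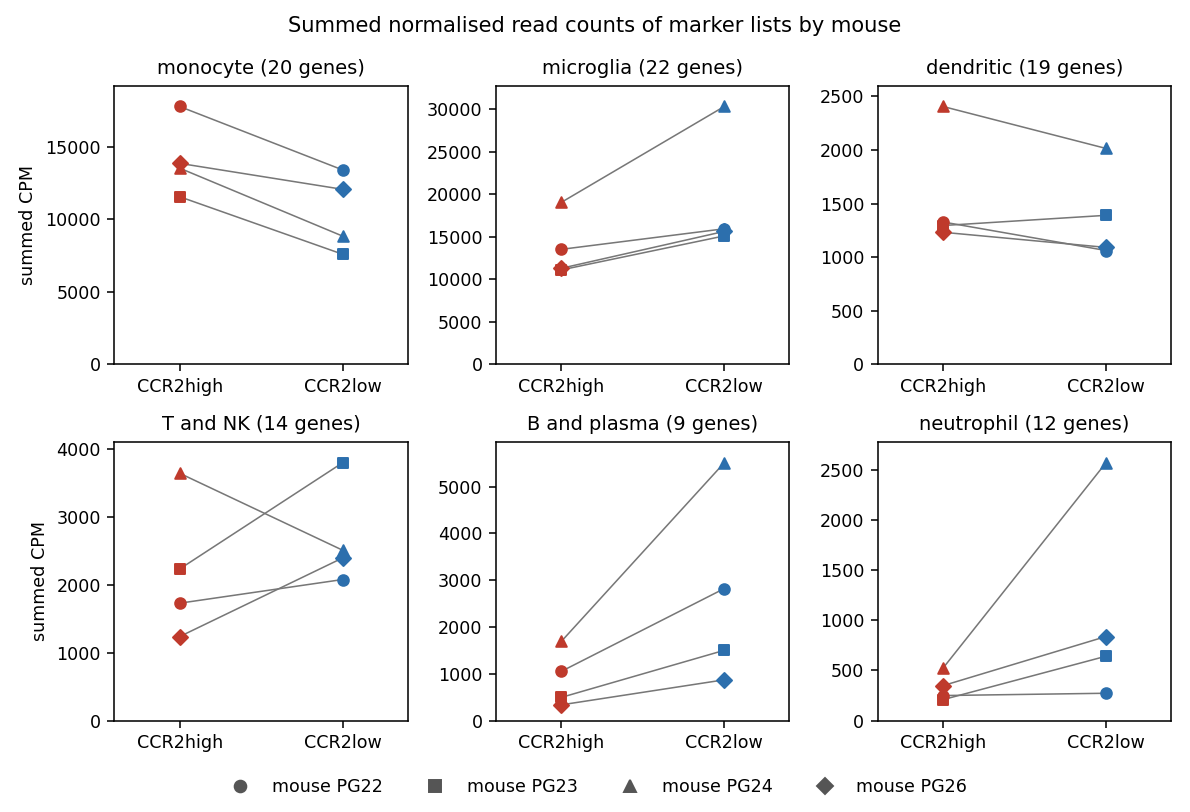
Summed normalised read count (CPM, axes from 0) of the tested members of 6 marker lists in each GFPneg CCR2high (red) and CCR2low (blue) library, with a line joining the libraries of 1 mouse. The microglial, B-lineage and neutrophil sums are lower in the CCR2high library of all 4 mice and the monocyte sums higher, while the T and NK sums of mouse PG24 run against those of the other mice. Lyz2 holds a large part of the monocyte sums, Csf1r and Cst3 a large part of the microglial sums, and Csf3r most of the neutrophil sums of mouse PG22.

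A further 3 genes on the lower side were chosen after their values were seen. Gata1, a transcription factor of erythroid cells, megakaryocytes, mast cells and eosinophils, was at 0 in all 4 CCR2high libraries and had 5.74, 7.51, 17 and 5.34 CPM in the CCR2low ones, which makes it at least 7.53-fold lower against the floor of 3 counts per library. Ear6, a ribonuclease of eosinophils, was likewise at 0 in CCR2high and at 2.87, 7.74, 2.84 and 9.09 CPM in CCR2low cells, at least 4.76-fold lower. Ccr3, the eotaxin receptor, had 5.76, 1.25, 12.1 and 5.29 CPM against 18.4, 71, 71.4 and 38.5 CPM, with no overlap. None was called in the fit over all populations (adjusted p = 0.155 for Gata1, 0.628 for Ear6 and 0.443 for Ccr3), while Gata1 (adjusted p = 0.0448) and Ccr3 (adjusted p = 0.0293) were called by edgeR in the 8 libraries alone and Ear6 was not tested there. The summed erythroid genes were at 49 CPM or less in every library.

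Dendritic cell genes were mixed. Of 19 tested, 4 were higher and 2 lower at an unadjusted p under 0.05, against 1.51% and 2.13% of all genes. The median log2 fold change was 0.54. The higher ones were Ccl22, Ccl17, Cd209a and Cacnb3, and the lower ones Cd24a and Siglech, which also belong to other cell types. All but Cacnb3 were called in the 8 libraries alone, where 0.406% of all genes were called higher and 0.739% lower. Flt3, the receptor that dendritic cells need to develop, had 10.9, 20.8, 38.7 and 15.2 CPM against 5.74, 15, 2.84 and 11.8 CPM and was higher in all 4 mice (adjusted p = 1). Zbtb46, Xcr1 and Clec9a, markers of conventional dendritic cells, were at 20.6 CPM or less in every library. Ccr7, which guides mature dendritic cells to lymph nodes, had 264, 243, 505 and 342 CPM against 177, 196, 336 and 206 CPM, with a higher level in each CCR2high library than in its partner (log2 fold change 0.54, adjusted p = 1).

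Interferon-stimulated genes lay slightly higher in CCR2high cells. Of 32 tested, 18 were higher in all 4 mice and 0 lower, against 10.3% and 8.81% of all genes. At an unadjusted p under 0.05, 4 were higher, against 1.51% of all genes. In the 8 libraries alone 3 were called higher, against 0.406%. The median log2 fold change was 0.35. Irf7, the regulator that amplifies type I interferon, had 1268, 879, 1305 and 602 CPM against 785, 457, 705 and 538 CPM. Ifitm3, a membrane protein that limits virus entry, had 2051, 1365, 1835 and 1315 CPM against 1299, 996, 1011 and 1022 CPM, with no overlap. Ifitm2 and Ifitm1 were the other 2, and all but Ifitm1 were called in the 8 libraries alone. No interferon-stimulated gene was called in the fit over all populations. The list's sum was 1.16 to 1.5 times as high in the CCR2high library of a mouse.

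Chemokine genes were more often higher than lower. Of 25 tested, 3 were higher (Ccl22, Ccl17 and Cxcl2) and 1 lower (Cxcl13, which draws B cells) at an unadjusted p under 0.05, and 10 were higher and 3 lower in all 4 mice. Of all genes 1.51% were higher and 2.13% lower at that p, and 10.3% higher and 8.81% lower in all 4 mice. Ccl5, which draws T cells and monocytes, had 578 CPM against 330 CPM and was called in the 8 libraries alone. Ccl2, the ligand of CCR2, had 222 CPM in CCR2high and 234 CPM in CCR2low cells. Of 33 receptor genes, 5 were higher and 4 lower. Besides Ccr2, Ccr1 had 826 against 593 CPM and Ccrl2 1082 against 770 CPM on the higher side, with Fpr2 and the low S1pr5, and on the lower side were Ccr3, Ccr6, Cxcr6 and Cx3cr1. Ccr2, Ccr3 and Cx3cr1 of these were called in the 8 libraries alone. In that fit 1 receptor gene was called higher and 3 lower, against 0.406% and 0.739% of all genes. Ccr2, the higher one, belongs to the sort gate and is no finding.

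Of 25 cytokine genes, 2 were higher and 1, the low-count Lif, was lower at an unadjusted p under 0.05. Of all genes 1.51% were higher and 2.13% lower at that p. Il1b, the cytokine interleukin-1 beta, had 2633, 1096, 1454 and 3391 CPM in the CCR2high macrophages of mice PG22, PG23, PG24 and PG26 and 1328, 445, 741 and 2179 CPM in the CCR2low ones. It was higher in each CCR2high library than in its partner by a similar factor, although the mice differed more than the populations (log2 fold change 0.95, adjusted p = 0.431, and 0.00591 in the 8 libraries alone). Il6 had 5.12, 3.12, 47.2 and 15.7 CPM against 3.44, 1.82, 7.56 and 9.09 CPM. Tnf had 103 ± 52.5 CPM and 135 ± 106 CPM and was higher in 2 of 4 mice. Osm, oncostatin M, was called in the 8 libraries alone, at 791 against 488 CPM.

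Of 22 macrophage and activation genes that were followed as a list, 12 were higher and 1 lower in all 4 mice, against 10.3% and 8.81% of all genes, with a median log2 fold change of 0.28. Ccr2 and Ly6c2, genes of the sort gate, are among the 12. At an unadjusted p under 0.05 Ccr2, Nr4a1, Il1b and Arg1 were higher and Cx3cr1 lower. Arg1, arginase, had 764 ± 516 CPM in CCR2high and 599 ± 482 CPM in CCR2low cells and was higher in all 4 mice (log2 fold change 0.45, adjusted p = 1). Nos2, the inducible nitric oxide synthase, had 55.8 ± 54.4 and 49 ± 66.8 CPM. Mrc1, the mannose receptor, had 129 ± 128 and 148 ± 151 CPM, Mertk 128 ± 57.3 and 151 ± 37.3 CPM, Fcgr1 419 ± 74.7 and 320 ± 68.9 CPM, Itgax 425 ± 109 and 350 ± 151 CPM, and Il4ra 634 ± 245 and 573 ± 358 CPM. Cd86, a costimulatory ligand, had 352 ± 27.9 and 296 ± 40.5 CPM, Cd80 13.7 ± 8.74 and 12 ± 2.24 CPM, and Nr4a1, an early response gene, 376 ± 168 and 248 ± 137 CPM. Nr4a1, Fcgr1, Itgax and Cd86 were also higher in all 4 mice, Cd86 without overlap. None of these genes other than Ccr2 was called in the fit over all populations, while Il1b and Cx3cr1 were called in the 8 libraries alone.

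The genes of antigen presentation on MHC class II were at high levels in both populations. Cd74, the invariant chain, had 20716 ± 6780 CPM in CCR2high and 18653 ± 5558 CPM in CCR2low cells, and H2-Aa 6696 ± 1286 and 5360 ± 1294 CPM. H2-Aa, H2-Eb1, H2-DMa, H2-DMb1 and Ifi30 were higher in all 4 mice, 5 of 14 genes, against 10.3% of all genes. Of the list 0 passed an unadjusted p of 0.05 in either direction. Ifi30, a reductase of antigen processing, had 706 ± 75 and 501 ± 36.7 CPM, with no overlap.

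Some other lists had members below an unadjusted p of 0.05, which 1.51% of all genes passed higher and 2.13% lower. Of 25 genes of lipid-associated macrophages, 3 were higher (Plin2, Clec7a and Lgals3) and 2 lower (Ctsd and Cst7). Ctsd, the lysosomal protease cathepsin D, had 6270 ± 1516 CPM in CCR2high against 8835 ± 1528 CPM in CCR2low cells and was called lower in the 8 libraries alone, as was Cst7, at 162 against 299 CPM, and Clec7a was called higher there. Cfp, the complement factor properdin, had 528 ± 105 and 310 ± 131 CPM. Pros1, a bridging ligand of dying cells, had 114 ± 34.1 and 189 ± 49.1 CPM without overlap, and Mef2c, a transcription factor of microglia, 77.6 ± 17.2 and 136 ± 41.8 CPM, and both were called lower in the 8 libraries alone. Of 29 matrix and protease genes, 4 were higher and 5 lower. In the border macrophage list (19 genes), the hypoxia and glycolysis list (25), the cell cycle list (30) and the iron and heme list (13), 0 genes passed an unadjusted p of 0.05 in either direction. Of the cell cycle genes 8 were lower and 1 was higher in all 4 mice, against 8.81% and 10.3% of all genes, with a median log2 fold change of -0.31. Of 20 genes induced by tissue dissociation, 2 were higher (Nr4a1 and Ier3, of which Ier3 was called in the 8 libraries alone), with a median of 0.26. In all 4 mice 7 of the 20 were higher and 1 lower, and the summed list was 1.03 to 1.45 times as high in the CCR2high library of each mouse. The part of this response in the other results was not tested. Of 20 checkpoint and costimulation genes, 18 were tested and 3 were higher (Tnfsf9, Pvr and Lilrb4).

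The same comparison in GFPpos macrophages of the same 4 mice gave 1 called gene, 0.00865% of those tested. Ly6i was that gene, with 692, 409, 504 and 124 CPM in CCR2high and 330, 180, 194 and 52.7 CPM in CCR2low cells (log2 fold change 1.21, SE 0.185, adjusted p = 0.0139). The call was lost when any 1 of the 8 GFPpos libraries other than the CCR2high library of mouse PG26 was left out. At an unadjusted p under 0.05 there were 422 genes (3.65%), 154 higher (1.33%) and 268 lower (2.32%), and 863 genes were higher (7.46%) and 1085 lower (9.38%) in all 4 mice. Ccr2 had 140, 149, 57.4 and 200 CPM against 42.7, 108, 35.2 and 71.8 CPM in the GFPpos libraries (log2 fold change 1.11, adjusted p = 0.881). Every GFPpos CCR2high library held less Ccr2 than the GFPneg CCR2high library of the same mouse.

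The difference between both comparisons was tested for each gene as an interaction. The edgeR test called 0 genes, and 182 genes were below an unadjusted p of 0.05 (1.57%; 0.683% with a higher and 0.891% with a lower difference in GFPpos cells) and a smallest adjusted p of 1, while DESeq2 with the mouse as a block called 1 gene in each direction. The 12 named genes on the higher side had a median log2 fold change of 1.51 without GFP and 0.94 with GFP, and the 12 on the lower side -1.96 and -0.45. They were chosen for their p in the GFPneg libraries, so only their GFPpos values are free of the choice. Ccl22 had a log2 fold change of 1.92 with GFP and Cd209a 1.66, in the same direction as without GFP. Retnlg had 0, 18.1, 42.7 and 5.78 CPM in GFPpos CCR2high and 0.475, 32.4, 36.4 and 9.58 CPM in GFPpos CCR2low macrophages, so that the level of 74 to 489 CPM was seen in GFPneg CCR2low cells and in none of these. Its log2 fold change was -0.36 with GFP, and its difference between both comparisons did not pass the correction (adjusted p = 1 in edgeR). Alox15 was at 8.06 CPM or less in every GFPpos macrophage library, and Alox5 at 26.3 CPM or less. Tmem119 had 704, 689, 1018 and 761 CPM against 916, 894, 1222 and 597 CPM with GFP (log2 fold change -0.17).

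**Figure D5:**
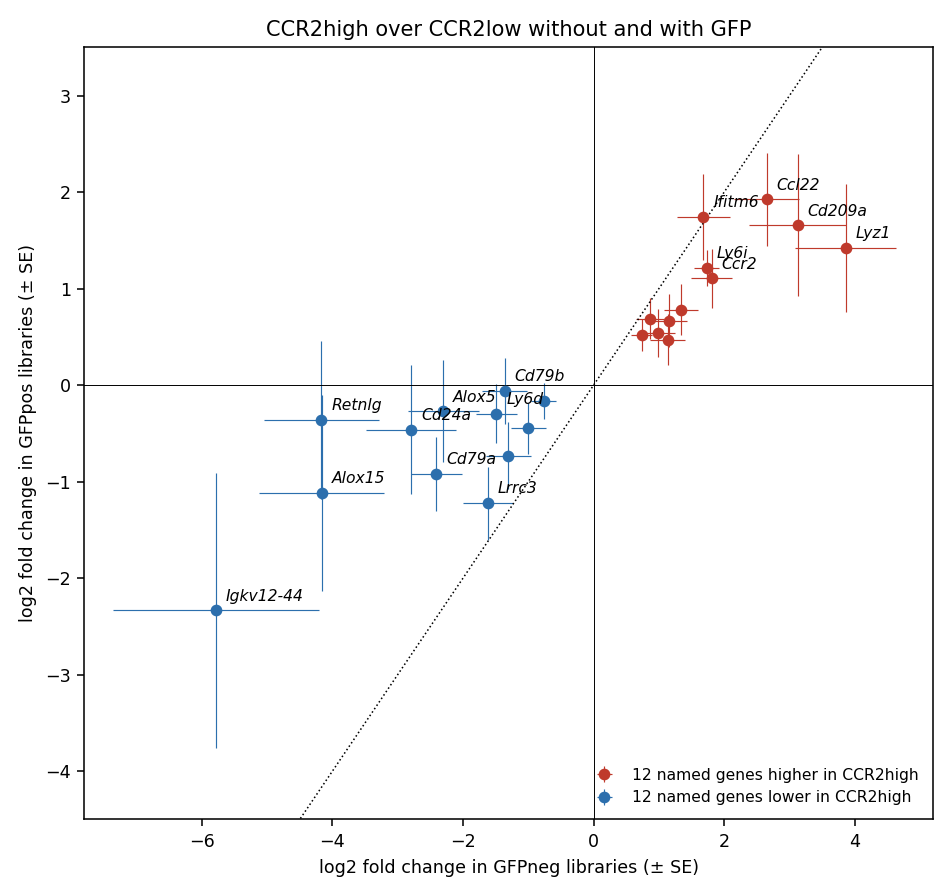
Log2 fold change of CCR2high over CCR2low macrophages in GFPneg libraries (horizontal axis) and in GFPpos libraries (vertical axis) for the 24 named genes, with standard errors and a dotted line of equality. The genes higher in CCR2high cells (red) have positive values on both axes, and most of the genes lower in CCR2high cells (blue) lie nearer to 0 in the GFPpos libraries than in the GFPneg libraries by which they were chosen.

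By list, the microglial genes had a median log2 fold change of -0.16 with GFP against -0.69 without, the B and plasma cell genes -0.89 against -1.68, the neutrophil genes -0.03 against -1.78, and the T and NK cell genes 0.02 against -0.89. The monocyte genes had 0.46 against 0.58 and the dendritic cell genes 0.66 against 0.54. The median over all genes was -0.013 with GFP. The T and NK cell median differed in sign between the comparisons, but with GFP it lay near the median of all genes, as did the neutrophil median. In the edgeR fit over all populations no list member's difference between the comparisons passed the correction.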

How the data were processed

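RNA of sorted populations was amplified with a low-input SMARTer kit and sequenced. The deposited values are whole-number read counts per gene symbol, made by the authors by alignment to mm10 with STAR, removal of duplicates with Picard 1.8.4 and counting with htseq-count (intersection-strict) on the GRCm38.p3 annotation. The strand setting of the counting is not given in the sources used here. Removal of duplicates without molecular identifiers can lower the counts of strongly expressed genes. Spike-in, unassigned (7.08% to 11.6% without a feature) and ambiguous reads (1.72% to 1.9%) stayed out of the tests.

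Counts were fitted in edgeR 4.0.16 (R 4.3.3; TMM, filterByExpr, robust quasi-likelihood, Benjamini-Hochberg adjustment) over 8 populations and 28 replicates, with population and mouse as terms, and 1 library with under 6000 genes at 5 or more reads was left out. A gene was called at an adjusted p under 0.05. The study used DESeq2, and its design formula is not given in the sources used here. Deviations from the group means correlated at 0.107 to 0.596 within a mouse (n = 4) and at -0.469 to 0.0959 between mice (n = 12). The values of mice PG22 (0.142) and PG23 (0.107) were only a little above the highest value between mice. Centring on the group means tends to make values between mice negative, so these are no separate check. The pairing itself was taken from the animal numbers in the titles.

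Named were the gate genes and macrophage genes of the study, up to 12 genes per direction with at least 10 CPM and 1 direction in 4 mice (called genes first, then by smallest p), and for each list its called members or the 2 of smallest p. Other genes named were chosen after their values were seen. The comparison, the members and the 32 lists were chosen with earlier results of these data known. Positions are from GENCODE vM21 (GRCm38). The alternatives were DESeq2 1.42.0, other scalings and filters, other sets of populations, no block, and leaving out each library. The scripts were tested on simulated data. Some members of the lists are not reported here.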

Additional observations from a re-analysis of the deposited data

Results flagged for a closer look

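The gap of the highest or lowest library to the next was divided by the range, on the scale of log2(CPM + 1). Of 92 groups of 4 libraries (46 genes in both populations), 7 were above Dixon's 95% critical value. For independent, normally distributed groups about 1 in 20 would pass by chance. These groups share mice, and many of the genes were chosen by their values in the same libraries, so that rate may not hold. Ly6c2 was lowest in the CCR2high library of mouse PG26, at 148 CPM against 212 to 225 CPM in the others (ratio 0.86). Mrc1 was highest in the CCR2low library of the same mouse, at 374 CPM against 64.9 to 87 CPM (0.834), and Penk lowest there, at 59.3 CPM against 112 to 120 CPM (0.902). Mouse PG26 was thus the distant one in 3 of the 7.

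Cd209a was highest in the CCR2low library of mouse PG24, at 24.6 CPM against 1.07 to 2.05 CPM (0.846), and Ifitm6 in the CCR2high library of that mouse, at 38.2 CPM against 16.3 to 18.6 CPM (0.852). Ifitm6 was lowest in the CCR2low library of mouse PG22, at 1.15 CPM against 8.51 to 9.33 CPM (0.947). Cd86 was lowest in the CCR2low library of mouse PG23, at 235 CPM against 312 to 319 CPM (0.929).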

How the results depend on the processing

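The number of genes called in GFPneg macrophages, 2 higher and 1 lower in CCR2high cells, depended on the processing. DESeq2 with the replicate block called 14 and 21, the 6 brain populations alone 23 and 31, the compared populations alone with the block 39 and 71, and the larger of the 2 deposited count tables alone (27 libraries) 4 and 2. DESeq2 without the block called 4 and 4. Without the block edgeR called 0 and 0, as it did in the compared populations alone without the block (506 at an unadjusted p under 0.05, smallest adjusted p 0.142) and with spike-in scaling, which shifted the median log2 fold change by 0.123. Leaving out 1 library gave 1 to 3 higher and 0 to 1 lower. In GFPpos macrophages, with 1 higher and 0 lower, DESeq2 with the block called 4 and 7, the brain populations alone 3 higher, and the larger table alone 1 lower. It was 0 higher in DESeq2 without the block, with spike-in scaling, without the block, and in the compared populations alone with or without the block, and 0 to 1 with 1 library left out. For the difference between both comparisons, with 0 calls, DESeq2 with the block called 1 higher and 1 lower, DESeq2 without the block 1 higher, and the brain populations alone 1 higher. The cause of these changes was not tested. The other alternatives left the counts within 1.5 times.

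Ly6i was called with each of the 8 libraries left out (log2 fold change 1.57 to 1.93, adjusted p 7.49e-06 to 0.0011), Ccr2 in 1 of 8 (1.66 to 1.97, adjusted p 0.0423 to 0.254) and Cd79a in 3 of 8 (-2.76 to -2.30, adjusted p 0.0172 to 0.15). Each was called in 7 of 11 other alternatives. Of 1618 values of 87 genes, 16 changed sign, all in genes not called. Cd80 (-0.15) became 0.13 in DESeq2 without the block, 0.18 without the block, 0.15 in the compared populations without it, 0.18 without the CCR2high and 0.34 without the CCR2low library of mouse PG23. Tubb3 (-0.09) became 0.30, 0.35 and 0.34 in the same fits without the block, 0.059 with spike-in scaling, 0.036 and 0.20 without the CCR2high library of mouse PG22 or PG24, and 0.20 without the CCR2low library of mouse PG24. Cd74 (0.11) became -0.079 without the CCR2low library of mouse PG23, Col1a2 (0.77) -0.15 without its CCR2high library, Itgam (-0.15) 0.041 without the CCR2high library of mouse PG24, and Tnf (-0.22) 0.0077 with spike-in scaling. With 1 library left out the values ran from -0.079 to 0.29 for Cd74, from -0.50 to 0.34 for Cd80, from -0.15 to 1.07 for Col1a2, from -0.41 to 0.041 for Itgam and from -0.59 to 0.20 for Tubb3. Depth limits the genes of a few CPM, where 1 read is a large share of the level.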

Other observations

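F5, coagulation factor V, was chosen after its values were seen. It had 0, 1.67, 3.52 and 0.46 CPM in the GFPneg CCR2high macrophages of mice PG22, PG23, PG24 and PG26 and 6.31, 20.3, 28.8 and 19.8 CPM in the CCR2low ones, with no overlap (log2 fold change -3.84, adjusted p = 0.441 in edgeR over all populations, and 0.0147 in the 8 libraries alone). With GFP it had at most 8.56 CPM in any library and a log2 fold change of 0.19.

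Mouse PG24 had the highest level of 19 of 22 microglial, 8 of 9 B-lineage and 10 of 12 neutrophil genes among the CCR2low libraries, and of 15, 8 and 9 of them among the CCR2high libraries. It had the highest level of 15 of 19 dendritic cell genes in CCR2high and of 7 in CCR2low cells, but of 1 of 20 monocyte genes in CCR2high and 5 in CCR2low cells.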
